A study of Homo sapiens with 21 samples.

Results

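HCC827 and HCC4006 are lung adenocarcinoma cell lines that carry activating mutations of the epidermal growth factor receptor gene EGFR and are killed by EGFR inhibitors. Of the 21 libraries of the series, 3 are described here. They are the library labelled HCC827P and the libraries labelled HCC4006P1_B and HCC4006P2, chosen by their cell line labels. All 3 come from parental cells labelled as sensitive, with no drug given, and all were grown in RPMI medium with fetal bovine serum. The labels cite 1 reference for HCC827P and HCC4006P2 and another for HCC4006P1_B, so the HCC4006 libraries stand for a pair of separately kept stocks labelled as the same line. That they are the same line could not be checked from counts. Another library of the first stock, HCC4006P1_A, was left out because its counts stop within chromosome 7. HCC827P has 1 library, so a difference between the lines cannot be told apart from a difference between HCC827P and other HCC827 cultures. The gefitinib-resistant HCC827GR and HCC4006GR and the erlotinib-resistant HCC4006ER (2 libraries, labelled A and B) descend from these cells and are used as further libraries of the same lines. The files hold counts per gene and no read sequence, so the EGFR mutations themselves were not read.

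EGFR is a receptor tyrosine kinase that signals through RAS and ERK to feedback genes such as DUSP4 and SPRY4, and its ligands include epiregulin (EREG) and amphiregulin. CDKN2A encodes p16, which blocks the cell cycle kinases CDK4 and CDK6. CXC chemokines such as CXCL1, CXCL5 and CXCL8 attract neutrophils, and their genes lie side by side on chromosome 4 next to EREG. Epithelial cells are held together by E-cadherin (CDH1), while N-cadherin (CDH2), vimentin (VIM) and collagens mark mesenchymal cells.

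The 3 libraries held 17336661 (HCC827P), 19498932 (HCC4006P1_B) and 13608332 (HCC4006P2) counts on genes. Levels are given as CPM, the count of a gene per 1000000 counts on genes, and 3 counts correspond to 0.173, 0.154 and 0.221 CPM in the same order. Reads that mapped to more than 1 place made up 31.7%, 31.9% and 20.4% of the reads in the same order. Across the 14380 genes with a mean of at least 1 CPM, Pearson's r of log2(CPM + 1) was 0.85 between HCC827P and HCC4006P1_B, 0.80 between HCC827P and HCC4006P2 and 0.89 between the HCC4006 libraries. HCC827P thus lay no nearer to the library that shares its reference. Genes are no independent replicates, so these values carry no test.

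The HCC4006 libraries differed from each other in markers of lung lineage. NKX2-1, the transcription factor that defines alveolar cells (chromosome 14, 36985597 to 36990354 in GRCh37), had 56.0 CPM in HCC827P and 113 CPM in HCC4006P2, but 0 counts in HCC4006P1_B. The surfactant-processing protease NAPSA followed with 35.4, 143 and 0.0513 CPM in the same order. The phosphate transporter SLC34A2 had 8.08 CPM in HCC827P, 3082 CPM in HCC4006P2 and 0 counts in HCC4006P1_B. The left-out library HCC4006P1_A, whose counts cover these genes, held 3 counts of NKX2-1 and 1 count of SLC34A2, so both libraries of that stock were near 0. The secretory mucin MUC5B had 121 CPM in HCC827P, 298 CPM in HCC4006P2 and 0 counts in HCC4006P1_B. The labelled lung origin was therefore met by NKX2-1 in HCC827P and HCC4006P2 and not in HCC4006P1_B. Other lineage genes did not follow NKX2-1. SFTPB had 6 counts in HCC827P, 3 in HCC4006P1_B and 138 in HCC4006P2. FOXA2 was lower in HCC827P, by -1.23 in log2(CPM + 1) against HCC4006P1_B and -1.59 against HCC4006P2. The median of the alveolar type 2 and lung lineage list was 0.58 against HCC4006P1_B and -1.25 against HCC4006P2. SFTPC and SCGB1A1, which mark mature alveolar and club cells, had 0 counts in all 3 libraries. Apart from FOXA2, none of these genes counts as different between the lines below. At the others HCC827P lay between the stocks or close to 1 of them.

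edgeR's quasi-likelihood test of HCC827P against both HCC4006 libraries called 0 of 16975 genes (0%) at a Benjamini-Hochberg adjusted p under 0.05, with 2069 genes at an unadjusted p under 0.05 and a smallest adjusted p of 0.0522. This design has 1 residual degree of freedom, set by the distance between the stocks, whose biological coefficient of variation was 0.566. DESeq2 on the same libraries called 316 genes higher and 746 lower in HCC827P. A fit over all libraries of the series but the left-out one called 1356 genes higher (7.99%) and 1823 lower (10.7%). Its spread was set only by the lines with more than 1 library, HepG2, HepG2S3, HCC4006ER and HCC4006. Apart from the HCC4006 stocks these are A and B libraries of 1 line, and HCC827P adds nothing to this spread. The comparison is therefore described by size. A gene is named higher or lower here when HCC827P differed from each HCC4006 library by at least 1 on the log2(CPM + 1) scale, which is 2-fold for well-expressed genes and less than the true ratio for low ones. By this rule 885 genes (6.15%) were higher and 1733 (12.1%) lower in HCC827P. Of these, 743 and 1455 were also called in the all-library fit. That fit compares the same parental libraries by which the genes were chosen, so its calls are no separate support here or below. The members nearest the threshold differed by 1.00, as did the nearest genes outside it. The HCC4006 libraries lay within 2-fold of each other at 82.7% of the higher and 74.4% of the lower genes, and they differed from each other past 2-fold at 3254 genes, against 4308 genes between HCC827P and HCC4006P1_B and 4915 between HCC827P and HCC4006P2. The median difference over all genes was -0.13, so values near it are not apart from the bulk.

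The differences moved with the GC content of the transcripts. When protein-coding genes were cut into 10 bins by GC content, in the lowest bin (median 36.7%) the median difference was 0.51 against HCC4006P1_B and 0.04 against HCC4006P2. In the highest bin (median 63.9%) it was -0.66 and -0.76. The share of genes counted as lower ran from 3.87% to 26.6% between these bins, and the share counted as higher from 9.08% to 1.82%. The resistant derivatives showed a smaller trend, from -0.04 to -0.25. With the median of each of 20 GC bins subtracted, an adjustment chosen after seeing the data, 990 genes were higher and 1232 lower, and 751 of the higher and 1147 of the lower genes stayed in their group. Genes counted as higher made up 33.8% of all genes past the threshold before this adjustment and 44.6% after it. The adjustment took away the only lower member of the epithelial signature, the cell cycle list and the lung lineage list, and other counts it changed are given with each list. The part of library preparation in the trend was not tested.

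**Figure D1:**
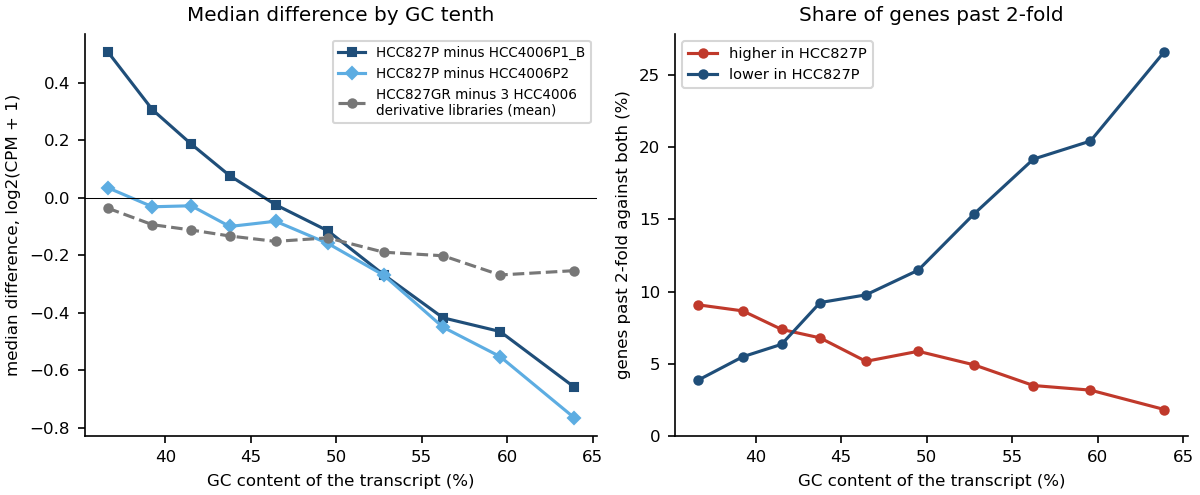
Median difference in log2(CPM + 1) (left) and share of genes past 2-fold against both HCC4006 libraries (right) for 10 bins of protein-coding genes by the GC content of their longest transcript in percent. Both parental differences slope down, to -0.66 and -0.76 in the most GC-rich bin, while the derivatives end at -0.25.

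Chemokines, secreted proteins and a cell cycle inhibitor made up most of the 15 protein-coding genes that were furthest above both HCC4006 libraries. CXCL5 had 1033 CPM in HCC827P against 0.154 CPM in HCC4006P1_B and 0.294 CPM in HCC4006P2, a difference of 9.72 on the log2(CPM + 1) scale. LCN2, an iron-binding protein of inflamed epithelium, had 1960 CPM against 21.6 and 20.9 CPM. MUC16, the mucin known as CA125, had 618 CPM against 0.154 and 25.8 CPM. In the first of these genes the HCC4006 libraries were both near the detection floor, whereas for MUC16 they lay far apart. The actin-bundling protein LCP1 had 496 CPM against 0.205 and 7.42 CPM, and HHLA2, a B7-family ligand of immune receptors, had 217 CPM against 0.821 and 1.91 CPM. FGB, a chain of fibrinogen, had 58.7 CPM and no count in either HCC4006 library, so that it was at least 266-fold higher when 3 counts in the shallower HCC4006 library are taken as the floor. SERPINB4 had 194 CPM in HCC827P and 0.154 and 0 CPM in HCC4006, and reads can be shared with its near copy SERPINB3. EDIL3, CHI3L2, KYNU and IL1A complete the group with EREG, CXCL1, CDKN2A and CXCL8, which are described below. In the all-library fit 14 of these 15 genes were called, and MUC16, with an adjusted p of 0.0507, was not. These calls rest on the libraries by which the genes were chosen and are no separate support.

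The 15 genes furthest below both HCC4006 libraries included several that were not detected in HCC827P. The adhesion receptor ADGRF5 had 0 counts in HCC827P and 146 and 721 CPM in HCC4006P1_B and HCC4006P2, at least 846-fold lower than the nearer of them with 3 counts as the floor. HCLS1, an actin regulator best known from blood cells (chromosome 3, 121350246 to 121379774), had 0 counts in HCC827P and 210 and 189 CPM in HCC4006. MACROH2A2, a histone variant of silent chromatin, had 0 counts against 58.0 and 68.9 CPM. These genes were plainly on in both HCC4006 stocks. PXDN, a matrix peroxidase, had 2.13 CPM in HCC827P against 797 and 815 CPM, a difference of -8.01. The inflammasome protein NLRP2 had 0.0577 CPM against 115 and 153 CPM. For other members the stocks stood apart from each other. The receptor tyrosine kinase AXL had 2.31 CPM in HCC827P, 834 CPM in HCC4006P1_B and 48.8 CPM in HCC4006P2. The reverse held for the invariant chain CD74 (1.79, 55.1 and 843 CPM) and the proteoglycan SPOCK2 (0.923, 58.4 and 1018 CPM). The group also held TNS4, CREB3L1, FBN1, ALDH3A1 and PLAT. The all-library fit, which compares the libraries by which the genes were chosen, called all 15.

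**Figure D2:**
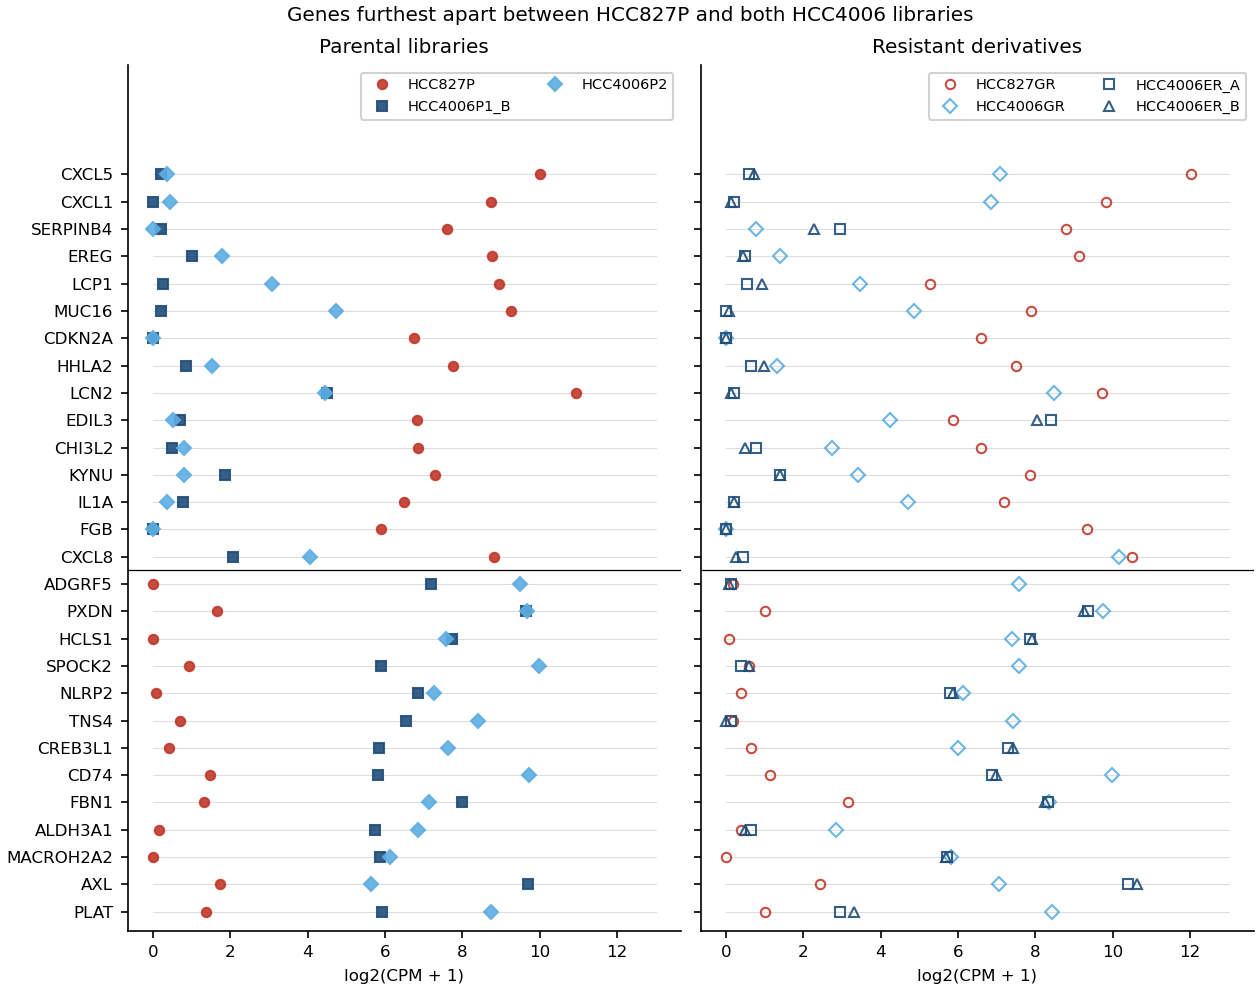
Levels as log2(CPM + 1) of the 15 genes furthest above (top) and 13 of the 15 furthest below (bottom) both HCC4006 libraries, in the parental libraries (left) and in the resistant derivatives (right). Each point is 1 library, and HCC827P lies outside both HCC4006 parental libraries at every gene by construction.

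Of 26 gene lists, inflammatory cytokines had the median furthest from that of all genes. Of 14 members with a mean of at least 1 CPM, 9 were higher in HCC827P and 0 lower, against 6.15% and 12.1% of all genes. The list's median difference was 4.97, against -0.13 over all genes. The cluster on chromosome 4 held 5 of the 9, CXCL1, CXCL2, CXCL3, CXCL5 and CXCL8, and also CXCL6, which is not in the list. CXCL8 (74606236 to 74609433) had 452 CPM in HCC827P, 3.23 CPM in HCC4006P1_B and 15.7 CPM in HCC4006P2. CXCL1 had 427, 0 and 0.367 CPM, and CXCL2 had 64.9, 0.923 and 1.32 CPM in the same order. CXCL3 with 31.3 CPM and CXCL6 with 16.4 CPM in HCC827P had at most 3 counts in each HCC4006 library, and because the coding sequences of CXCL1, CXCL2 and CXCL3 are much alike their reads may be split unevenly. Outside the cluster, the interleukin genes IL1A (89.3 CPM against 0.718 and 0.294 CPM) and IL1B (58.4 CPM against 1.13 and 0.294 CPM) were higher. The growth factor CSF2 (82.3 CPM against 0.615 and 2.13 CPM) and the chemokine CCL20 (33.8 CPM against 0.154 and 0.294 CPM) were higher as well. IL6 had 8.42 CPM against 4.05 and 1.03 CPM and, on the log2(CPM + 1) scale, passed the rule against HCC4006P2 alone. All 9 genes were called in the all-library fit, which compares the same libraries by which they were counted as higher.

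The promoters of the neighbouring CXC chemokine genes are shown because 5 of the 6 that were higher hold the same match to the kappaB consensus, the site bound by NF-kappaB. The 250 bases before the start of each gene were taken from RefSeq (GRCh38.p14) and searched on both strands for the consensus, and its matches are in capitals. CXCL8, the other gene printed, has no match to the consensus as searched. Its window does hold the letters ggaatttcc, which are part of the match in the other genes, so a looser search could count a site there.
CXCL1 (chr4:73869143-73869392, plus strand): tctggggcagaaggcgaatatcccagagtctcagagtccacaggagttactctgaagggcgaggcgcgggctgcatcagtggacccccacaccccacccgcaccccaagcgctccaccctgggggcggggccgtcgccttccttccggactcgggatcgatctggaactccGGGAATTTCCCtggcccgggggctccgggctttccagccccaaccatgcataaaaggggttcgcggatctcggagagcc
CXCL2 (chr4:74099196-74099445, minus strand): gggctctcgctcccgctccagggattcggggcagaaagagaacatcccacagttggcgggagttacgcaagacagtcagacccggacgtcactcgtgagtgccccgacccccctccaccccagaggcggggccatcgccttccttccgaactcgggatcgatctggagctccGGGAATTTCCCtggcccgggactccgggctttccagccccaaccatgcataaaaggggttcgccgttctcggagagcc
CXCL3 (chr4:74038690-74038939, minus strand): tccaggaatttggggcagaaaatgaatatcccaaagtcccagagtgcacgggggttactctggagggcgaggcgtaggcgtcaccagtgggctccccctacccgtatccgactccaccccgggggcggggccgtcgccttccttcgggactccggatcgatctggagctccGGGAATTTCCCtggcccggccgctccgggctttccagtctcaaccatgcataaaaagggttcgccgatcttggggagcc
CXCL5 (chr4:73998678-73998927, minus strand): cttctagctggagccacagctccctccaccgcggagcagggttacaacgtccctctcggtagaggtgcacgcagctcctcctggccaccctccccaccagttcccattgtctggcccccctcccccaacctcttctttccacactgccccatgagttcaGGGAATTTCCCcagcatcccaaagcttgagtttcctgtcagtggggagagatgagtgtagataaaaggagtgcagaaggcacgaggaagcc
CXCL6 (chr4:73836428-73836677, plus strand): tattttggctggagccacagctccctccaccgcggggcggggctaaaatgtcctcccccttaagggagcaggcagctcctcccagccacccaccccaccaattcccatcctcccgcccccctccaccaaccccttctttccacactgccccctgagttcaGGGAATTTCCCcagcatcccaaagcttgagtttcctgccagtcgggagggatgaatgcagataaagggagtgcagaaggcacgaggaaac
CXCL8 (chr4:73740319-73740568, plus strand): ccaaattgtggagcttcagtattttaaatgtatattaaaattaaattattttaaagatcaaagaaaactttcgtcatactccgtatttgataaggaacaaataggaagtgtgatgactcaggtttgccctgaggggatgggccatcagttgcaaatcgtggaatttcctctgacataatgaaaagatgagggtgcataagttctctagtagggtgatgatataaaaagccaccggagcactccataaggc
The match begins 79, 78, 79, 91 and 90 bases before the start of CXCL1, CXCL2, CXCL3, CXCL5 and CXCL6, and its 11 letters GGGAATTTCCC read almost the same on both strands. These 11 letters were chosen after the promoters were read, as those that the 5 chemokine genes share. They occur on either strand in 26 of 27305 promoters of the same length, and in 16 of 10282 of expressed protein-coding genes. Of the 516 promoters of genes higher in HCC827P, 6 hold them. The 5 chemokine genes are among these 6 by that choice, so this count is no separate support. The printed windows of CXCL1, CXCL2 and CXCL3 are much alike around the match, as are those of CXCL5 and CXCL6. The 5 matches are therefore not independent of each other. The windows of EREG and IL1A held no match to the consensus, and that of LCN2 held another match. The consensus as a whole was found in 10.5% of the promoters of genes higher in HCC827P and in 8.25% of those of all expressed protein-coding genes. Both figures describe letters in a window and not binding.

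EGFR itself (chromosome 7, 55086710 to 55279321) had 7113 CPM in HCC827P, 1036 CPM in HCC4006P1_B and 962 CPM in HCC4006P2, a difference of 2.83. Of the 13 expressed members of the EGFR family and its ligands, 4 were higher and 2 lower, against 6.15% and 12.1% of all genes. After the GC adjustment 3 were higher and 1 lower. EREG (chromosome 4, 75230862 to 75254466) had 434 CPM against 1.03 and 2.42 CPM, a difference of 7.37. The ligands BTC (16.2 CPM against 1.64 and 2.35 CPM) and NRG1 (26.1 CPM against 11.4 and 1.47 CPM) were higher. The ligands TGFA (34.6 CPM against 95.0 and 75.1 CPM) and EGF (0.750 CPM against 3.44 and 5.29 CPM) were lower. The partner receptors ERBB2 (63.0 CPM against 96.5 and 143 CPM) and ERBB3 (85.9 CPM against 82.0 and 145 CPM) did not pass the rule.

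Of 22 other receptor tyrosine kinases and their ligands, 8 were lower and 3 higher, or 6 and 3 after the GC adjustment, where 12.1% of all genes were lower and 6.15% higher. The median difference was -0.48 against HCC4006P1_B and -0.999 against HCC4006P2. AXL and its ligand GAS6 were both lower, and GAS6 had 2.65 CPM in HCC827P against 65.0 and 76.5 CPM. The related receptors MERTK (7.61 CPM against 18.3 and 40.6 CPM) and TYRO3 (12.7 CPM against 38.3 and 26.7 CPM) were lower as well, so all 3 receptors of the AXL group were on the same side. FGFR2 had 0.750 CPM against 6.97 and 41.7 CPM. The ligand of MET, HGF, had 19.2 CPM in HCC827P and 0 counts in both HCC4006 libraries, at least 87.1-fold higher. MET itself had 1295 CPM against 559 and 828 CPM and was past 2-fold against HCC4006P1_B only. ROS1 (7.73 CPM against 0 and 0.955 CPM) and FGFR4 (17.0 CPM against 6.51 and 5.44 CPM) were higher.

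Of 17 genes of ERK output and feedback, 0 were higher and 5 lower, against 6.15% and 12.1% of all genes. The others did not pass the rule, and the list's median difference was -0.80. In the all-library fit 3 were called lower. The phosphatase DUSP4 had 17.5 CPM in HCC827P against 202 and 196 CPM, a difference of -3.43. The transcription factor ETV1 (12.7 CPM against 73.7 and 127 CPM) and the feedback inhibitor SPRY4 (7.44 CPM against 28.1 and 64.7 CPM) were lower. The immediate early genes FOS (3.11 CPM against 51.7 and 10.6 CPM) and EGR1 (20.1 CPM against 227 and 61.6 CPM) were lower too, and the stocks stood apart at both. None of the 5 was lower by the same rule in the resistant derivatives, where the list's median was 0.89.

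CDKN2A (chromosome 9, 21967751 to 21995300) had 107 CPM in HCC827P and 0 counts in both HCC4006 libraries, at least 484-fold higher. Its neighbour CDKN2B, which encodes the related inhibitor p15, had 12.7 CPM and likewise 0 counts in HCC4006, at least 57.8-fold higher. MTAP, the purine salvage enzyme on the other side of CDKN2A (21802635 to 21937650), had 328 CPM against 7.38 and 6.98 CPM. The next expressed protein-coding genes, IFNE towards one side (1.4997 CPM against 0.718 and 1.62 CPM) and DMRTA1 towards the other (2.999 CPM against 2.36 and 7.64 CPM), did not pass the rule. Both stocks and all 3 HCC4006 derivative libraries had 0 counts of CDKN2A and CDKN2B, whereas HCC827GR had 95.6 and 26.2 CPM. The kinases that p16 inhibits were higher in HCC827P: CDK4 (chromosome 12, 58141510 to 58149796) had 2113 CPM against 122 and 76.9 CPM, and CDK6 had 286 CPM against 44.4 and 44.8 CPM. Within the cell cycle list 4 of 15 members were higher and 1, CDKN1C, lower, against 6.15% and 12.1% of all genes. CDKN1C did not pass after the GC adjustment. DNA copy number was not measured in these files. The study profiled it separately in all its cell line pairs by shallow genome sequencing, with the lowest coverage for HCC827P. Those profiles were not used here.

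CDK4 stood in a short row of genes of which some were high and others not, a pattern noticed after the values were seen. PIP4K2C had 1356 CPM in HCC827P against 67.1 and 83.2 CPM, OS9 had 2336 CPM against 145 and 170 CPM, and TSPAN31 had 184 CPM against 21.6 and 21.2 CPM. AGAP2, which lies between OS9 and TSPAN31, had 25.6 CPM against 5.28 and 2.87 CPM. Further out, DCTN2 had 106 CPM against 99.5 and 83.8 CPM and did not pass the rule, TSFM was higher with 48.0 CPM against 23.4 and 16.3 CPM, and CTDSP2 was lower with 89.98 CPM against 236 and 260 CPM. Next to EGFR, SEC61G had 2374 CPM against 144 and 130 CPM, LANCL2 had 600 CPM against 65.9 and 49.97 CPM, and VOPP1 had 2129 CPM against 387 and 253 CPM. On chromosome 11 the order was reversed. CD44, the hyaluronan receptor (35160429 to 35253949), had 760 CPM in HCC827P against 6130 and 9870 CPM, and its neighbours PDHX (34.4 CPM against 368 and 401 CPM) and APIP (2.60 CPM against 154 and 162 CPM) were lower as well. OS9, AGAP2, TSPAN31 and CDK4 overlap their next neighbour on the opposite strand, as do APIP and PDHX, and how the counting treated strand is not given in the sources used here, so reads in the overlaps may be assigned to either gene.

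**Figure D3:**
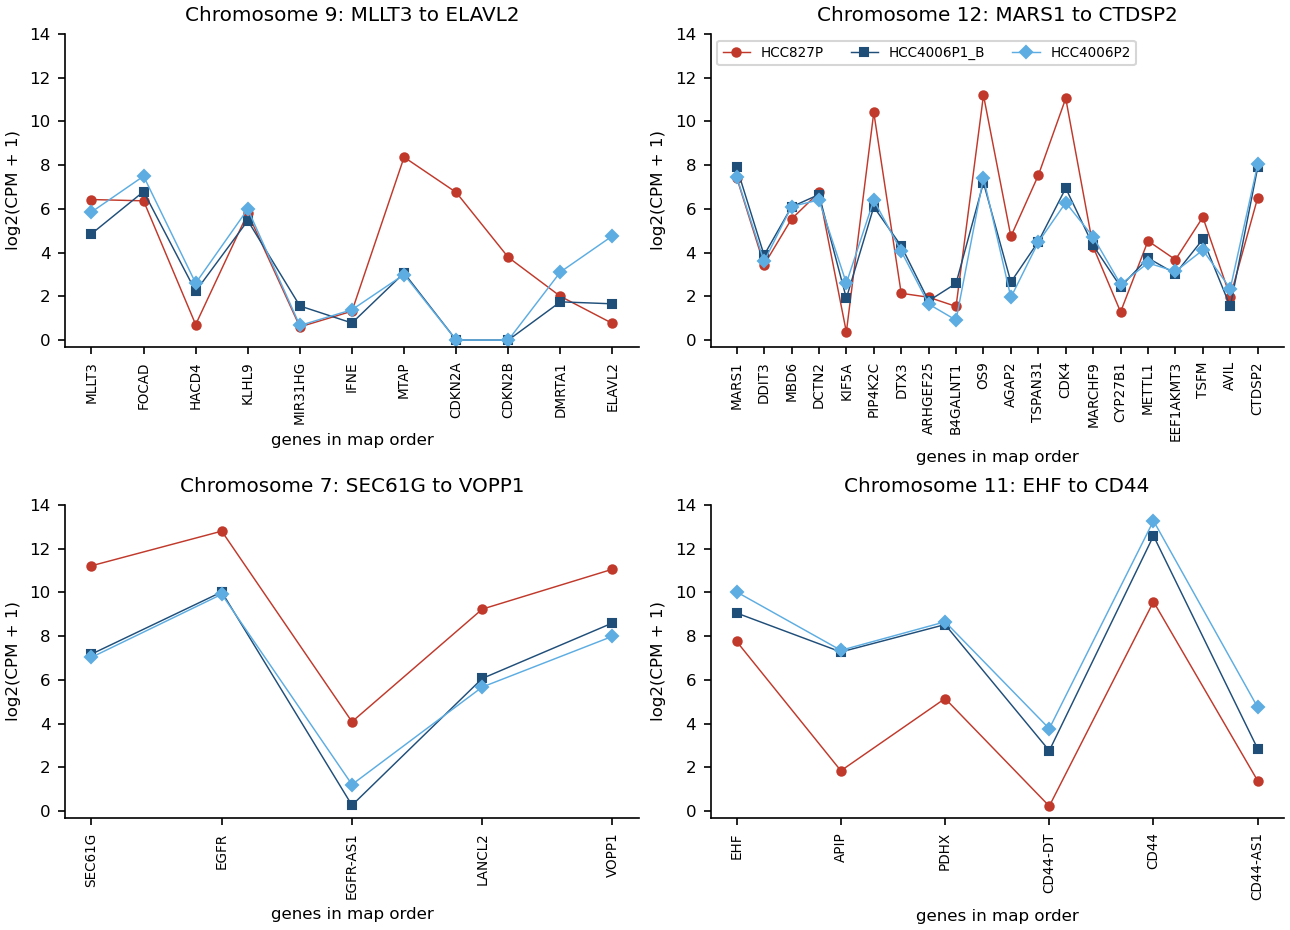
Levels as log2(CPM + 1) of neighbouring genes in map order around CDKN2A, CDK4, EGFR and CD44, with 1 point per library for HCC827P, HCC4006P1_B and HCC4006P2. The lines part at MTAP, CDKN2A and CDKN2B and at PIP4K2C, OS9, AGAP2, TSPAN31 and CDK4. At these genes the HCC4006 libraries stay within 2-fold of each other. They lie further apart at some others, such as ELAVL2 (2.15 CPM in HCC4006P1_B and 26.2 CPM in HCC4006P2).

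A search in windows of 21 neighbouring expressed genes found 9 stretches in which the median difference, after subtracting that of all genes, was at least 1 against both HCC4006 libraries towards HCC827P and 15 towards HCC4006. Overlapping windows were joined, so the median of a joined stretch can be smaller. For the lower stretch on chromosome 2 around the HOXD cluster it was 0.10 against HCC4006P1_B and -0.67 against HCC4006P2, and this stretch is no stable difference from both. The longest lay on chromosome 8 from 57870490 to 92053100 with 91 genes, of which 48 were higher and 4 lower, and its median was 1.71 against HCC4006P1_B and 1.34 against HCC4006P2. It included the transcription factor gene HNF4G (62.0 CPM against 0.256 and 0.294 CPM) and the calcium-binding protein gene CALB1 (21.9 CPM against 1.33 and 0.588 CPM). Further along the same chromosome, a stretch of 29 genes held the growth regulator MYC, with 303 CPM against 29.8 and 24.4 CPM. In that stretch 9 genes were higher and 1 lower, and its median was 1.18 against HCC4006P1_B but 0.47 against HCC4006P2. No gene of it lay in the stretches found after the GC adjustment. The stretch on chromosome 4 from TMPRSS11E to BTC contained the chemokine cluster, with 11 of 21 genes higher. On chromosome 19 a stretch of 40 genes, most of them named as zinc finger genes, such as ZNF528 (41.0 CPM against 6.77 and 3.75 CPM), had 18 genes higher and 0 lower.

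Among the lower stretches, the one on chromosome 11 from 28042166 to 45904799, which includes CD44, stood furthest out, with 32 of 55 genes lower and a median of -1.41 against HCC4006P1_B and -1.75 against HCC4006P2. The first 16.7 Mb of chromosome 10 followed with 30 of 64 genes lower, among them DIP2C (2.88 CPM against 44.7 and 84.4 CPM) and GATA3 (2.02 CPM against 30.0 and 18.7 CPM). On chromosome 20, from BCAS1 to TAF4, 14 of 34 genes were lower, including GNAS (304 CPM against 1248 and 1171 CPM). After the GC adjustment 4 higher and 11 lower stretches were found, and they shared genes with 4 of the 9 higher and 6 of the 15 lower ones. Stretches on chromosomes 4, 7, 8 (the longest) and 19 (zinc finger genes) and lower ones on chromosomes 10 (the first), 11 (with CD44), 15, 20 and X shared genes with them, while the lower stretch of 58 genes on chromosome 16, whose median GC content was 58.8%, did not. In HCC827GR against all 3 HCC4006 derivative libraries, the median was past 1 in 1 of 9 higher and 1 of 15 lower stretches. By sign alone, it was above 0 in 9 of 9 higher and below 0 in 14 of 15 lower stretches. The exception was the CD44 stretch on chromosome 11, whose median was -1.70 against HCC4006GR but 0.26 and 0.24 against the HCC4006ER libraries. There, APIP stayed lower in HCC827GR, with 2.25 CPM against 124 CPM in HCC4006GR and 19.9 and 19.8 CPM in HCC4006ER. CD44 had 2404 CPM in HCC827GR, below 9031 CPM in HCC4006GR but above 445 and 522 CPM in HCC4006ER. PDHX likewise had 39.9 CPM in HCC827GR, below 268 CPM in HCC4006GR but above 22.5 and 21.98 CPM in HCC4006ER.

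**Figure D4:**
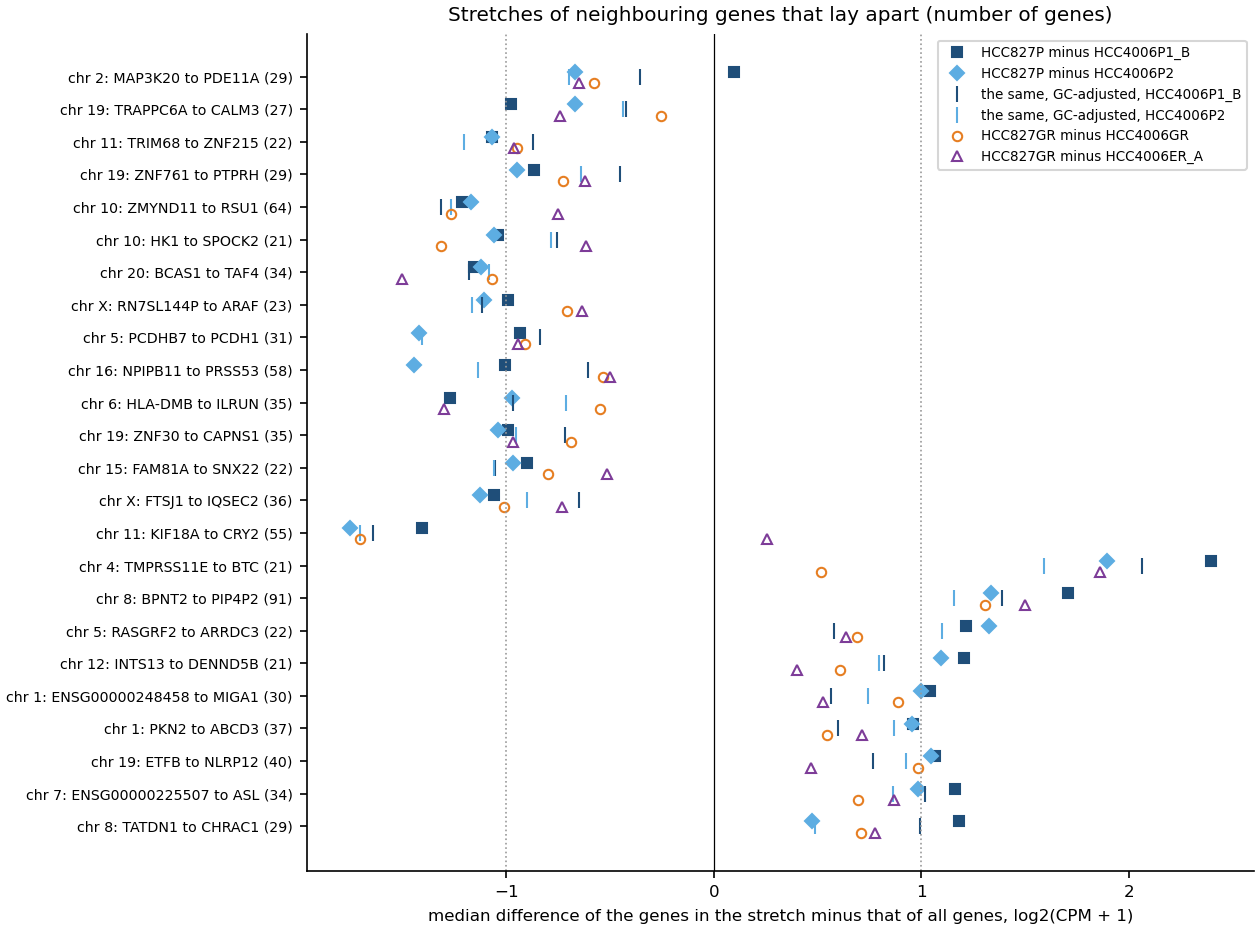
Median difference in log2(CPM + 1) of the genes in each of the 24 stretches minus that of all genes, against each HCC4006 parental library, after the GC adjustment, and for HCC827GR against HCC4006GR and 1 HCC4006ER library. The chromosome 8 stretch from BPNT2 to PIP4P2 stays past 1 in all of them, and the chromosome 11 stretch from KIF18A to CRY2 is at 0.26 against HCC4006ER_A.

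Both lines had the epithelial markers and differed in mesenchymal genes. CDH1 had 748 CPM in HCC827P against 485 and 482 CPM, and the adhesion molecule EPCAM had 480 CPM against 369 and 344 CPM, neither past the rule. Of the 13 genes of the epithelial signature, 0 were higher and 1, the protease inhibitor SPINT1, lower (105 CPM against 286 and 266 CPM). SPINT1 did not pass after the GC adjustment, with a difference of -0.85. Of 29 expressed genes of the mesenchymal signature, 11 were lower and 2 higher, against 12.1% and 6.15% of all genes. The list's median was -1.37. This median rested on HCC4006P2, being -0.13 against HCC4006P1_B and -1.69 against HCC4006P2. After the GC adjustment 10 were lower and 1 higher, with a median of -0.98. VIM had 65.6 CPM in HCC827P, 598 CPM in HCC4006P1_B and 160 CPM in HCC4006P2, and CDH2 had 0.173, 55.5 and 9.26 CPM in the same order. The gelatinase MMP2 had 0 counts in HCC827P against 30.0 and 83.3 CPM, at least 173-fold lower than the nearer library with 3 counts as the floor, and the fibrillar collagen gene COL5A1 had 5.13 CPM against 280 and 206 CPM. The 2 higher genes were fibronectin (FN1, 216 CPM against 107 and 77.1 CPM) and VEGFA (297 CPM against 62.0 and 120 CPM). The study used both signature lists on these samples to follow its resistant lines, so their counts are no independent evidence of a direction.

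Of 29 expressed HOX genes, which pattern the body axis, 11 were lower and 1 higher, against 12.1% and 6.15% of all genes. The others did not pass the rule, and the list's median was -1.28 (-0.91 after the GC adjustment). The HOXD cluster carried the only run of 3 or more neighbouring genes with under 3 counts in one line and at least 1 CPM in each library of the other. In this run, HOXD10 had 0 counts in HCC827P against 7.23 and 19.6 CPM and HOXD11 had 0 counts against 1.54 and 5.81 CPM. HOXB4 had 0.115 CPM against 8.92 and 16.1 CPM. HOXA3 was the gene on the other side, with 24.8 CPM against 7.38 and 0.735 CPM. After the GC adjustment 6 were lower and 2 higher.

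Genes of antigen presentation were lower in 5 of 18 cases and higher in 0, against 12.1% and 6.15% of all genes. The median was -0.63 against HCC4006P1_B and -1.24 against HCC4006P2, and 4 were lower after the GC adjustment. HLA-C had 71.0 CPM in HCC827P against 418 and 545 CPM, and HLA-E had 57.2 CPM against 279 and 322 CPM. B2M, the light chain of these molecules, had 578 CPM against 1175 and 1203 CPM. HLA alleles differ in sequence between people, which affects how their reads map, and this was not tested. Interferon-stimulated genes were lower in 6 of 21 cases, or 4 after the GC adjustment, and IFI44L was higher (73.3 CPM against 3.69 and 26.5 CPM). The lower genes included IFITM1 (0.692 CPM against 14.6 and 19.6 CPM) and IFIT2 (10.9 CPM against 77.3 and 66.7 CPM). The interferon list's median was 0.09 against HCC4006P1_B and -1.73 against HCC4006P2.

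Mucins divided between the lines. The median of the mucin and CEACAM list was -0.07 against HCC4006P1_B and -2.97 against HCC4006P2. MUC4 (74.0 CPM against 1.28 and 2.87 CPM), MUC13 (9.11 CPM against 0 counts) and MUC16 were higher, and MUC1 (34.9 CPM against 253 and 285 CPM), MUC20 (2.71 CPM against 46.3 and 96.2 CPM) and MUC21 (0 counts against 2.10 and 11.2 CPM) were lower. Airway secretory genes divided likewise into 3 higher and 2 lower of 10, against 6.15% and 12.1% of all genes. The list's median was 1.81 against HCC4006P1_B and -3.17 against HCC4006P2, so its direction depended on the stock. SCGB3A2, a secretoglobin of small airways, had 104 CPM against 1.85 and 1.84 CPM, while the secretory transcription factors SPDEF (2.999 CPM against 44.9 and 90.2 CPM) and FOXA3 (0 counts against 5.23 and 12.9 CPM) were lower. Among basal and squamous genes, 4 of 14 were higher and 2 lower, or 5 and 1 after the GC adjustment. The list's median was 1.42 against HCC4006P1_B and -0.15 against HCC4006P2. The higher genes included the cornified envelope gene SPRR1B (20.9 CPM against 0.0513 and 0.0735 CPM) and the transcription factor SOX2 (23.4 CPM against 0.821 and 6.69 CPM). The 2 lower genes were DSC3, with differences of -1.12 against HCC4006P1_B and -1.96 against HCC4006P2, and PKP1, with -1.01 and -2.41. In the derivatives, 1 of the 4 higher and 1 of the 2 lower genes kept their side by the same rule, and the list's median was -0.26. The basal keratin KRT5 had 0 counts in all 3 libraries. The calcium-binding protein S100A9 had 51.4 CPM against 0.872 and 0.441 CPM.

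NRF2 targets were lower in 4 of 18 cases, in 3 after the GC adjustment and in 2 by the all-library fit, against 12.1% of all genes by the same rule, with the aldehyde dehydrogenase ALDH3A1 (0.115 CPM against 52.9 and 114 CPM) and the quinone reductase NQO1 (136 CPM against 456 and 294 CPM) among them. The transporter ABCC2 was the 1 higher member, with 83.7 CPM against 1.23 and 2.28 CPM. In the xenobiotic and retinoid list 4 of 12 were lower, or 3 after the GC adjustment, such as ALDH1A3 (73.5 CPM against 268 and 591 CPM), and 1, CYP1B1, was higher. DNA methylation genes were higher in 2 of 10 cases, against 6.15% of all genes. These 2 were the maintenance enzyme DNMT1 (463 CPM against 201 and 210 CPM) and the de novo enzyme DNMT3B (24.8 CPM against 9.33 and 6.54 CPM). In the proliferation list 1 of 18 was higher, a share near that of all genes (6.15%), and it was the topoisomerase TOP2A (1417 CPM against 323 and 360 CPM).

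The counts of the other lists are set beside 6.15% higher and 12.1% lower of all genes. They were as follows, for tight junctions (1 higher and 3 lower of 15), S100 proteins (2 and 1 of 10), alveolar type 2 and lung lineage (1 and 1 of 14) and cancer-testis genes (2 and 0 of 3). The gastrointestinal and hepatic list had 3 higher (4 after the GC adjustment) and 1 lower of 5, and the neuroendocrine list 0 and 2 of 3, of which 1 was lower after the GC adjustment. Simple epithelial keratins and reference genes had 0 genes past the rule of 5 and 9. Of the immune, stromal and endothelial markers, 1 of 11 matched genes reached a mean of 1 CPM and PTPRC, which marks all blood cells, had 0, 0.103 and 0.220 CPM in HCC827P, HCC4006P1_B and HCC4006P2.

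**Figure D5:**
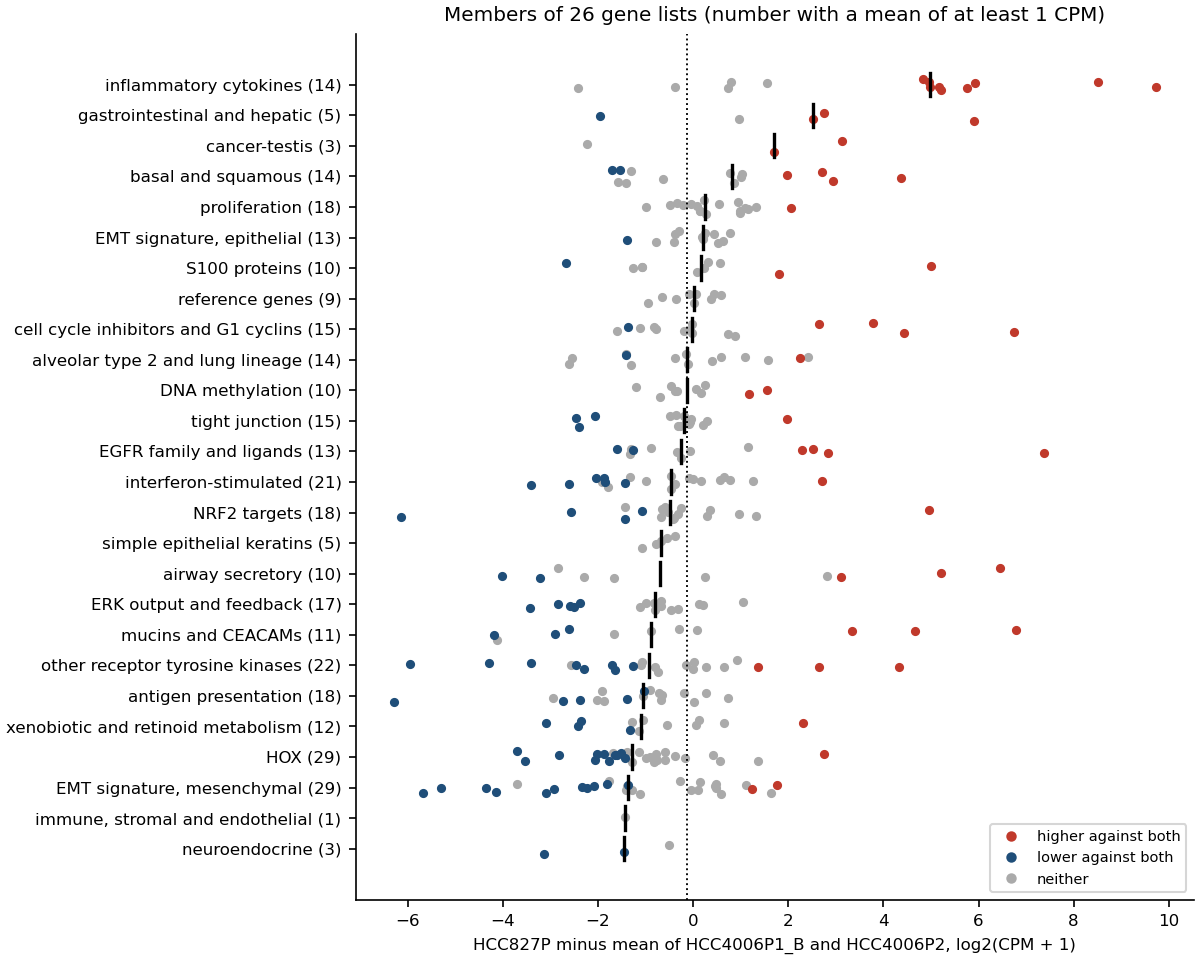
Difference between HCC827P and the mean of both HCC4006 libraries in log2(CPM + 1) for each expressed member of 26 gene lists, with the list's median as a bar and the median of all genes (-0.13) as a dotted line. Inflammatory cytokines lie furthest to the right with a median of 4.97, and the mesenchymal, HOX and antigen presentation lists lie to the left.

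The same line contrast in the resistant derivatives used libraries that the choice of genes did not. edgeR's quasi-likelihood test of HCC827GR against HCC4006GR and the summed HCC4006ER libraries called 0 of 17451 genes (0%) at an adjusted p under 0.05, with 1680 at an unadjusted p under 0.05, and DESeq2 called 339 higher and 701 lower. Of the 885 genes higher in HCC827P, 417 (47.1%) were also past 2-fold in HCC827GR against all 3 HCC4006 derivative libraries, against 5.63% of all genes. Of the 1733 lower genes, 768 (44.3%) were, against 9.35% of all genes. The derivatives descend from the parental cells compared, so these shares describe what the lines kept and are no separate replication of the lines. Of the 15 genes furthest above, 13 were past 2-fold in the derivatives, and of the 15 furthest below, 11 were.

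Some differences between the parental lines were not found between all derivatives. CXCL8 had 1455 CPM in HCC827GR and 1144 CPM in HCC4006GR but 0.354 and 0.205 CPM in HCC4006ER. Other chemokine genes of its cluster were also detected in HCC4006GR. There CXCL6 had 115 CPM, against 101 CPM in HCC827GR, while CXCL5 had 135 CPM against 4185 CPM and stayed apart. Of the 9 inflammatory cytokines higher in HCC827P, 6 were past 2-fold against all HCC4006 derivative libraries. EDIL3 had 57.9 CPM in HCC827GR, 17.8 CPM in HCC4006GR and 340 and 263 CPM in HCC4006ER. EREG, by contrast, stayed apart, with 560 CPM in HCC827GR against 1.65, 0.405 and 0.360 CPM. ADGRF5 was at or below 0.129 CPM in HCC827GR and both HCC4006ER libraries and had 192 CPM in HCC4006GR. VIM had 675 CPM in HCC827GR and 604, 1433 and 1516 CPM in the HCC4006 derivatives, so the parental difference was not seen there against HCC4006GR.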

How the data were processed

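Messenger RNA was captured with oligo-dT beads and made into libraries with the stranded KAPA kit per the labels, which also name Bowtie, TopHat, SAMtools and HTSeq on hg19. The study's methods further name a 3′ kit for some libraries, and the labels put none of those used here in it. Versions and the counting options for strand are not given in the sources used here. The authors deposited raw counts per Ensembl gene, 53515 genes in each file. The 5 summary rows of each file were left out of library sizes and tests. Of the genes, 84.3% were matched to GENCODE release 44 lifted to GRCh37, which gave symbols and positions.

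Counts were divided by the total on genes (CPM) and compared as log2(CPM + 1), among genes with a mean of at least 1 CPM over the 3 parental libraries. The main test was edgeR 4.0.16 (quasi-likelihood, TMM normalization, R 4.3.3), with DESeq2 1.42.0 as an alternative, both with Benjamini-Hochberg adjustment at 0.05. On simulated counts with the same libraries, edgeR called 7 of 100 genes changed 4-fold and 46 of 100 changed 16-fold in the parental design, and 0 and 10 of 100 in the derivative design. The GC adjustment used the longest transcript of each gene. All p-values measure the spread between these libraries only, and CPM floors cover counting error only.

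The genes compared, the 26 lists and the tests were chosen with earlier results of these data known. The text names, in each direction, the 15 protein-coding genes with the largest difference and at least 10 CPM in the higher line, EGFR, VIM, CDH1, CDH2 and EPCAM, up to 4 members of each list in each direction, and genes of the stretches described. That rule was written for genes called by edgeR. Because edgeR called none, it was applied to genes past 2-fold against both HCC4006 libraries, and this was decided after the data were seen. Members beyond it are named for their role and were chosen after their values were seen. Some genes that the rule takes in are not reported here. The mesenchymal and epithelial lists come from the study. HCC4006P1_A was used for the lineage check and 1 alternative only.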

Additional observations from a re-analysis of the deposited data

Results flagged for a closer look

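At 16 genes past 2-fold between the parental lines, HCC827GR lay on the opposite side of all 3 HCC4006 derivative libraries, also by at least 2-fold. Values are differences in log2(CPM + 1), first between HCC827P and the mean of both HCC4006 libraries, then between HCC827GR and the mean of the HCC4006 derivatives. Whether these pairs of differences differ was not tested, and each rests on 1 HCC827 library in each state. After the GC adjustment the parental difference fell to -0.45 for LRRC75B, -0.71 for CYP27B1 and -0.81 for HSD3B7. Some of the genes had low levels, such as PCSK5 with 0.0577 CPM in HCC827P, 2.00 CPM in HCC4006P1_B and 4.48 CPM in HCC4006P2.

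Of the genes higher in HCC827P, CSF1R, the receptor of a macrophage growth factor, had 1.34 and then -3.04. IGFBP3, which binds insulin-like growth factors, had 2.27 and then -1.95. The stocks stood apart at IGFBP3, with 80.2 CPM in HCC4006P1_B and 413.5 CPM in HCC4006P2 against 884 CPM in HCC827P. GLIPR1 had 2.17 and then -1.66, the adaptor APBA2 had 1.70 and then -1.45, and the lysosomal protease CTSB had 1.46 and then -1.27.

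Of the genes lower in HCC827P, the receptor LPAR1 of lysophosphatidic acid had -4.06 and then 1.43. The integrin ITGB8 had -1.90 and then 2.47, and the WNT receptor FZD8 had -2.15 and then 1.42. The proprotein convertase PCSK5 had -1.94 and then 2.28, ZSWIM5 had -2.01 and then 2.99, and LRRC75B had -1.27 and then 2.67. GPRC5B had -2.53 and then 1.76, PIR had -2.36 and then 1.22, and the vitamin D hydroxylase CYP27B1 had -1.20 and then 1.51. HSD3B7 had -1.37 and then 1.21, and PAPSS2 had -1.38 and then 1.19.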

How the results depend on the processing

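The count of genes called depended on the method. Against 0 by edgeR, DESeq2 called 1062, total-count library sizes 132, no filter on low counts 1339, an all-library spread 3179 and the addition of HCC4006P1_A 341, while RLE normalization called 0. With the all-library spread, leaving out either HCC4006 library gave 5387 to 5637 calls, the lone HCC4006 library being assumed to vary like the others. Between the derivatives, DESeq2 called 1040 and no filter 1328, and total-count sizes or leaving out either HCC4006ER library called 0.

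With 1 HCC4006 library left out, 1524 to 1917 genes were past 2-fold higher and 2391 to 3391 lower. With TMM-scaled libraries, 1042 were higher and 1538 lower. This scaling moved the median of all genes by 0.11. The share of lower genes also past 2-fold in the derivatives was 49.0% with a pseudocount of 0.1 CPM and 48.6% after the GC adjustment. Without 1 HCC4006 library the shares were 26.8% to 32.9% for higher and 32.1% to 35.7% for lower genes. Windows of 11 genes gave 23 higher and 40 lower stretches, and the GC adjustment left 4 higher. The cause was not tested for any of these changes, beyond the fewer libraries compared. No paired analysis was possible because HCC827P has 1 library. At the depth of the shallower HCC4006 library, genes under 0.221 CPM cannot be told apart from 0.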
